A study of Mus musculus with 6 samples.

Results

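The 8 genes Itgb1 to Itgb8 encode the integrin beta subunits, and their mRNA was followed in mDE6, a mouse cell line, after depletion of the ARF-like GTPase Arl4c. They were taken by symbol from a table of 22032 genes, in which all 8 were listed. The family is complete by name, but it was selected on the difference between shArl4c and shControl, as Itgb7 was known to be among the genes with the largest one. The groups were 3 libraries of mDE6 with a short hairpin RNA against Arl4c (shArl4c) and 3 libraries of mDE6 with a control hairpin (shControl). Both groups carried a hairpin, and the labels give neither the hairpin sequences, nor the tissue the line came from, nor whether the libraries of a group were separate cultures. P-values therefore measure only the spread between these libraries, which may be technical. With a single hairpin group against Arl4c, loss of the GTPase and off-target action of that hairpin cannot be told apart.

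Integrins are the receptors by which cells hold the extracellular matrix and, in leukocytes, other cells. Each is a pair of an alpha and a beta subunit, and a beta subunit reaches the surface only with an alpha partner. The short tail of most beta subunits binds talin and kindlin, which link the receptor to actin and switch it on. The long tail of beta4 is linked through plectin to keratin filaments. Beta1 pairs with many alpha subunits, beta3, beta5, beta6 and beta8 with alphav, beta4 with alpha6, beta7 with alpha4 or alphaE, and beta2 with the leukocyte alpha subunits. The title of the series places Arl4c in tooth germ development and osteoblastic differentiation.

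Values are CPM as deposited, the reads of a gene multiplied by a factor of its library. They summed to 969971 CPM (shArl4c 3) to 1019097 CPM (shControl 3), so that factor was not set by the library total alone. The sum was higher in every shControl library than in any shArl4c library. The libraries held 12316770 to 14976113 reads, and 1 read was worth 0.0672 to 0.0827 CPM. Arl4c itself stood at 6.75, 7.42 and 6.89 CPM in shArl4c 2, 3 and 4, against 20.7, 21.05 and 20.1 CPM in shControl 1, 2 and 3. Library shArl4c 3 stood apart from its group, with a root mean square difference of 0.272 and 0.255 log2 units from shArl4c 2 and 4, against 0.189 between those. Of 12 mesenchymal markers, 10 averaged 1 CPM or more over the libraries. Among them Vim had a mean of 2444 ± 164 CPM in shArl4c and 2543 ± 51.6 CPM in shControl (SD, n = 3 each). Thy1 (0.224 CPM in shArl4c and 0.498 CPM in shControl) and Fap (0.578 CPM in shArl4c and 0.232 CPM in shControl) were under 1 CPM. Since the family was chosen on the contrast of shArl4c with shControl, beta subunit values are given as a description, without p-values. Which of them passed the threshold is stated only beside the same over all tested genes. A "higher" or "lower" of a beta subunit states its values only.

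Itgb7 had by far the largest difference of the family, Itgb8 followed at a low level, and the abundant Itgb1 and Itgb5 differed by small amounts. Of the 8 subunits, 6 averaged 1 CPM or more and so entered the fit across all genes (Itgb1, Itgb3, Itgb4, Itgb5, Itgb7 and Itgb8), and Itgb2 and Itgb6 fell below it. In that fit 3 of the 6 passed limma's threshold, an adjusted p under 0.05, with Itgb7 and Itgb8 higher and Itgb1 lower, where 36.9% of all 14740 tested genes passed. The groups did not overlap in Itgb1, Itgb5, Itgb7 and Itgb8 among these 6, where 46.8% of all tested genes did not overlap (24.3% with shArl4c higher and 22.5% with it lower). The shares past the threshold were 18.9% of all tested genes higher and 18.0% lower. Nothing is read from these counts, since the contrast was known when the genes were chosen.

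Itgb7 encodes beta7, known as the beta subunit of the lymphocyte homing receptor. It stood at 159.8, 140.4 and 154 CPM in shArl4c 2, 3 and 4, against 28.6, 30.1 and 28.05 CPM in shControl 1, 2 and 3. Every shArl4c library was far above every shControl library, and the lowest of the shArl4c libraries was shArl4c 3. The means were 151 ± 9.998 CPM in shArl4c and 28.9 ± 1.03 CPM in shControl (SD, n = 3 each), a 5.24-fold higher level and a log2 fold change of 2.35 on the scale of log2(CPM + 1). Ordered by log2 fold change, Itgb7 was number 9 of the 14740 tested genes, and a place near the top was known when the family was chosen. Without shArl4c 3 the log2 fold change was 2.40.

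Itgb8 encodes beta8, which with alphav holds and activates latent TGF-beta. It stood at 5.08, 6.82 and 6.12 CPM in shArl4c 2, 3 and 4, from 70, 91 and 80 reads, against 1.85, 2.15 and 2.23 CPM in shControl 1, 2 and 3, from 25, 32 and 27 reads. The groups did not overlap, and here shArl4c 3 was the highest library. The means were 6.01 ± 0.875 CPM in shArl4c and 2.08 ± 0.205 CPM in shControl, 2.89-fold higher, with a log2 fold change of 1.18 that was number 118 of all tested genes. At this low level the added 1 CPM compressed the change. A pseudocount of 5 gave 0.63, and edgeR on the recovered reads gave 1.52.

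**Figure D1:**
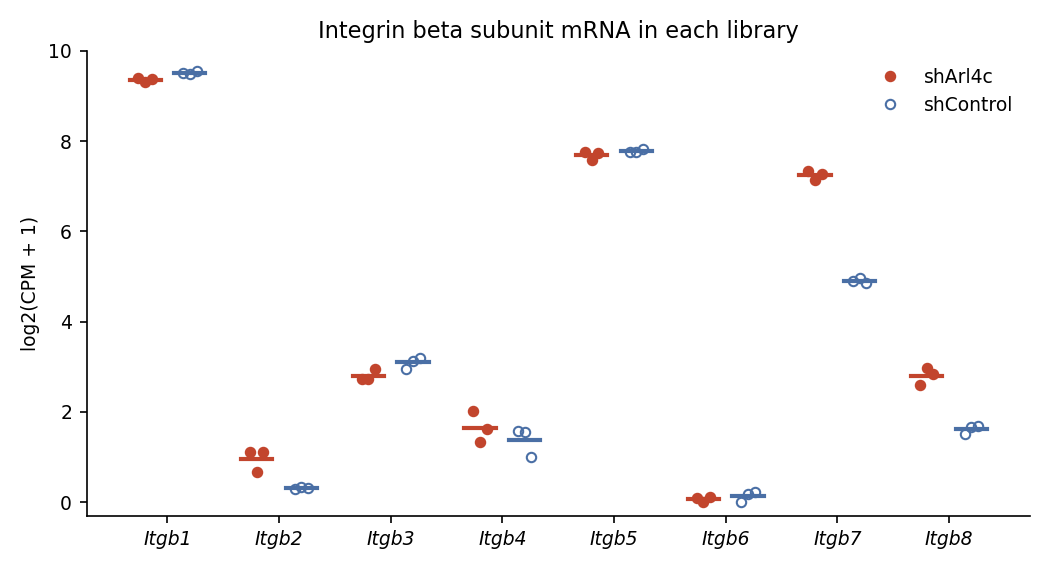
log2(CPM + 1) of each integrin beta subunit gene (vertical axis) in the 3 shArl4c libraries (filled points) and the 3 shControl libraries (open points), with the group mean as a line. Itgb2, Itgb7 and Itgb8 are higher in every shArl4c library than in any shControl library, Itgb1 and Itgb5 lie close together in both groups, and Itgb6 is near 0.

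Itgb1 encodes beta1, the common partner of receptors for collagen, laminin and fibronectin, and was the most abundant member. It stood at 674, 637 and 659 CPM in shArl4c 2, 3 and 4, against 727, 717 and 744 CPM in shControl 1, 2 and 3. All shArl4c libraries were below all shControl libraries, but by little. The means were 657 ± 18.6 CPM in shArl4c and 729 ± 13.4 CPM in shControl, 1.11-fold lower, with a log2 fold change of -0.15. With quantile normalization this was -0.07.

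Itgb5 encodes beta5, a partner of alphav in the vitronectin receptor. It stood at 213.7, 191 and 212.6 CPM in shArl4c 2, 3 and 4, against 214.4, 216 and 226 CPM in shControl 1, 2 and 3. The groups were separated by less than 1 CPM, and shArl4c 3 was the library farthest below the others. The means were 206 ± 12.9 CPM in shArl4c and 219 ± 6.51 CPM in shControl, a log2 fold change of -0.09, and without shArl4c 3 it was -0.04.

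Itgb3 encodes beta3, which pairs with alphav in osteoclasts and with alphaIIb in platelets. It stood at 5.66, 5.62 and 6.73 CPM in shArl4c 2, 3 and 4, against 6.72, 7.80 and 8.19 CPM in shControl 1, 2 and 3. The highest shArl4c library just overlapped the lowest shControl library. The means were 6.01 ± 0.631 CPM in shArl4c and 7.57 ± 0.764 CPM in shControl, with a log2 fold change of -0.29. Of 12 endothelial and platelet markers 7 were listed, with a summed level of 13.0 to 16.5 CPM in shArl4c and 13.2 to 16.5 CPM in shControl. Like sums hid differences in both directions, though the 3 tested markers did not pass by limma. Ppbp, the largest part, was higher in every shArl4c library, at 9.68 ± 1.54 CPM in shArl4c and 7.75 ± 0.614 CPM in shControl (limma adjusted p = 0.0736). Gp1bb (9 reads in shArl4c and 68 in shControl) and Tek (1 in shArl4c and 13 in shControl) were lower in every shArl4c library. The groups overlapped in the other listed markers.

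Itgb4 and Itgb6 encode the subunits best known from epithelia: beta4 anchors hemidesmosomes, and beta6 with alphav activates TGF-beta. Itgb4 stood at 3.05, 1.50 and 2.07 CPM in shArl4c 2, 3 and 4, against 1.99, 1.95 and 0.993 CPM in shControl 1, 2 and 3. On the opposite strand Itgb4 overlaps a noncoding gene, B230344G16Rik, whose reads cannot be told apart from its own if strand was not used in counting. The ranges of the groups overlapped, and the log2 fold change of 0.27 became 0.09 without shArl4c 2, 0.44 without shArl4c 3 and 0.08 without shControl 3. Itgb6 had 1, 0 and 1 reads in shArl4c 2, 3 and 4, against 0, 2 and 2 reads in shControl 1, 2 and 3. All 6 counts were at or under 3 reads, which a count of 0 allows, or 0.202 to 0.248 CPM per library (counting error only). Of the epithelial markers 12 of 15 were listed, with a summed level of 9.49 to 10.6 CPM in shArl4c and 7.82 to 8.77 CPM in shControl. Cdh1, the E-cadherin gene, had 0 reads in the shArl4c libraries together and 13 in the shControl libraries together. Other markers ran the other way: Krt19, a keratin gene, had 31 reads in shArl4c and 5 in shControl, and Krt14 had 50 in shArl4c and 28 in shControl, with overlapping groups for Krt14. Trp63 made up most of the sum, at 6.37 ± 0.178 CPM in shArl4c and 5.17 ± 0.254 CPM in shControl, and did not pass (limma adjusted p = 0.106). The part of epithelial cells in the Itgb4 values was not tested.

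Itgb2 encodes beta2, the subunit of the leukocyte integrins. It had 16, 8 and 15 reads in shArl4c 2, 3 and 4, against 3, 4 and 3 reads in shControl 1, 2 and 3, or 1.16, 0.600 and 1.15 CPM against 0.221, 0.269 and 0.248 CPM. The shArl4c libraries were all higher, from few reads, and shArl4c 3 was again the lowest of them. No fold is given, since the shControl libraries stood at or next to the 3 reads that a count of 0 allows. Of its alpha partners Itgam and Itgax were listed, both near 0: Itgam had 1 read in shArl4c and 5 in shControl over the group, and Itgax 6 in shArl4c and 2 in shControl. Of 16 leukocyte markers 9 were listed, with a summed level of 9.87 to 11.1 CPM in shArl4c and 7.20 to 8.71 CPM in shControl. Ptprc, the defining leukocyte gene, had 2 reads in shArl4c and 4 in shControl. Cd68, a lysosomal gene rich in macrophages, was the largest part of that sum in shArl4c, at 5.77 ± 0.207 CPM against 2.79 ± 0.397 CPM in shControl. The part of other cell types in the Itgb2 difference was not tested. In these bulk samples more cells of a type and more RNA per cell cannot be told apart.

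The levels of different genes were compared per length, as CPM per kilobase (kb) of annotated transcript. In shArl4c the order was Itgb1 (172 ± 4.89 CPM per kb), Itgb5 (72.9 ± 4.56), Itgb7 (56.5 ± 3.73), Itgb3 (1.04 ± 0.109), Itgb8 (0.715 ± 0.104), Itgb4 (0.371 ± 0.132), Itgb2 (0.326 ± 0.108) and Itgb6 (0.0132 ± 0.0114), and only Itgb4 and Itgb2 had overlapping ranges among neighbours. In shControl it was Itgb1 (191 ± 3.52 CPM per kb), Itgb5 (77.6 ± 2.30), Itgb7 (10.8 ± 0.385), Itgb3 (1.31 ± 0.132), Itgb4 (0.277 ± 0.0951), Itgb8 (0.247 ± 0.0244), Itgb2 (0.0829 ± 0.00802) and Itgb6 (0.0265 ± 0.0233), where only Itgb4 and Itgb8 overlapped. Itgb8 thus stood above Itgb4 in shArl4c without overlap and level with it in shControl.

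As a share of the summed beta subunit level per kb, Itgb7 made up 18.9%, 18.1% and 18.7% in shArl4c 2, 3 and 4, against 3.83%, 4.03% and 3.64% in shControl 1, 2 and 3. Itgb1 made up 56.7 ± 0.940% in shArl4c and 67.9 ± 0.333% in shControl, and Itgb5 24.0 ± 0.534% in shArl4c and 27.6 ± 0.329% in shControl. Part of the lower shares of Itgb1 and Itgb5 is arithmetic, since all shares add up to the whole. The summed level itself was 304 ± 13.2 CPM per kb in shArl4c and 281 ± 5.35 CPM per kb in shControl. The other 5 subunits each held under 0.5% of the sum in both group means.

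**Figure D2:**
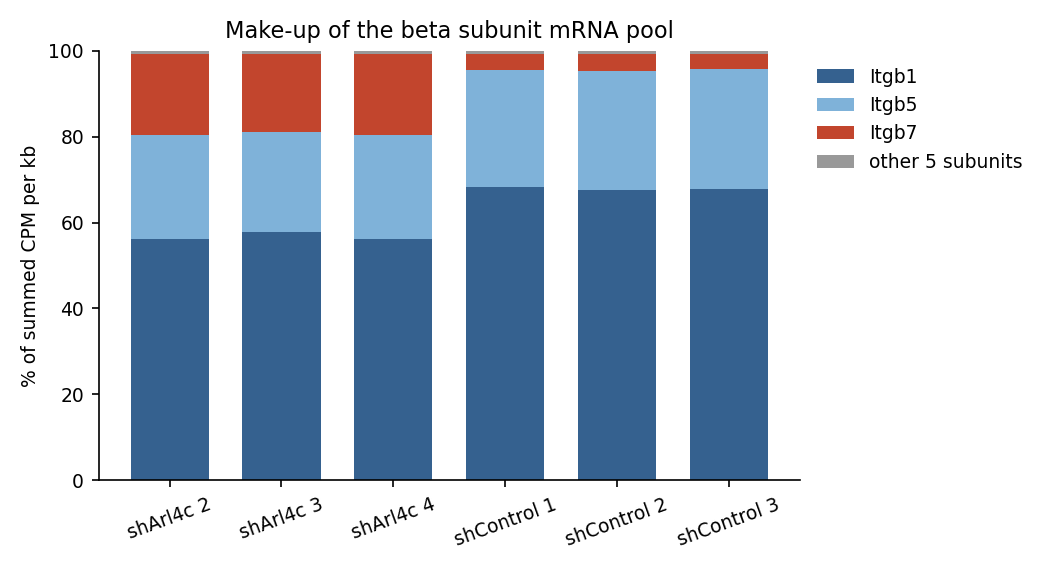
Share (%) of each beta subunit in the summed CPM per kb of all 8 (vertical axis), 1 bar per library with shArl4c on the left. Itgb7 fills 18.1% to 18.9% of the bar in the shArl4c libraries and 3.64% to 4.03% in the shControl libraries.

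The promoters of the 2 subunits that were higher and tested, Itgb7 and Itgb8, are shown beside those of the 2 most abundant ones, Itgb1 and Itgb5. They are RefSeq windows on build GRCm38.p6, from 250 bases before to 50 after the annotated start, 5′ to 3′ on the strand of the gene. Capitals mark matches to GGGCGG (GC box, read as CCGCCC on the other strand) and GGAATG (TEAD motif). Itgb7 is at chr15:102231886-102232185 (minus strand), Itgb8 at chr12:119238227-119238526 (minus), Itgb1 at chr8:128685404-128685703 (plus) and Itgb5 at chr16:33829415-33829714 (plus).
Itgb7: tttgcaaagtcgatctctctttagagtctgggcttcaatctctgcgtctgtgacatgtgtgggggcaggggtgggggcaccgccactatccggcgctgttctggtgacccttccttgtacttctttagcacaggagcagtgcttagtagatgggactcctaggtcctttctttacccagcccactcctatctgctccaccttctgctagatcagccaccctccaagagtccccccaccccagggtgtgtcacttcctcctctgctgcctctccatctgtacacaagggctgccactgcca
Itgb8: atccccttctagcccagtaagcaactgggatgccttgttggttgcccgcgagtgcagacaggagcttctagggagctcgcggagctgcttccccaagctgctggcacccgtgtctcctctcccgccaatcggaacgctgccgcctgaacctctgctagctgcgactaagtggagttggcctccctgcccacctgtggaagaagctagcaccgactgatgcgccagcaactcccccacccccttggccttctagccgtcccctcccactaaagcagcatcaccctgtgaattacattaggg
Itgb1: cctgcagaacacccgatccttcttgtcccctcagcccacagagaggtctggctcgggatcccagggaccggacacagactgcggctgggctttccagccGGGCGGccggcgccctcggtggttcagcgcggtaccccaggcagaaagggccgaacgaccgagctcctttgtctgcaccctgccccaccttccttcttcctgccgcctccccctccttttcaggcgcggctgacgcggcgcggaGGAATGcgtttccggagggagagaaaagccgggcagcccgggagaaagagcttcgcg
Itgb5: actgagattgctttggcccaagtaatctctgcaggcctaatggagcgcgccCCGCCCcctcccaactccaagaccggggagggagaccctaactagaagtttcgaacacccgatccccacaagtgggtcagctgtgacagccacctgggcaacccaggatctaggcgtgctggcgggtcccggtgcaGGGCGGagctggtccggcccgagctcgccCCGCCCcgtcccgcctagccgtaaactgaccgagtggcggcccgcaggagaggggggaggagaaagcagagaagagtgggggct

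The windows of the abundant genes were richer in CG: Itgb1 held 27 CpG dinucleotides at 67.3% G and C and Itgb5 held 20 at 65.7%, while Itgb8 held 13 at 60.7% and Itgb7 held 5 at 56.3%. The median over the 32851 windows of all genes was 7 CpG and 52.7% G and C. A GC box was found once in Itgb1 and 3 times in Itgb5, and not in the Itgb7 or Itgb8 window. The share of all windows that hold one on either strand was 35.7%. GGAATG occurred once, in Itgb1, against 14.7% of all windows. On either strand, none of the 4 windows matched TATAAA (the core promoter box, 13.6% of all windows), TGANTCA (AP-1, 7.81%) or the interferon-stimulated response element (3.44%). The E box CANNTG was found in Itgb7, Itgb8 and Itgb5 and in 72.3% of all windows. These are matches of letters in a short window and say nothing of binding. Sequences were matched for 5 of the 8 members: Itgb1, Itgb5, Itgb6, Itgb7 and Itgb8.

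The alpha subunits, which set what a beta subunit binds, moved in both directions. Of 18 alpha subunit genes 16 were listed and 10 tested. By limma 3 rose, 4 fell and 3 did not pass (70.0% past the threshold against 36.9% of all tested genes, with a median log2 fold change of -0.10 against 0.01). Of the subunits of laminin receptors, Itga6 rose to 91.4 ± 3.64 CPM in shArl4c, against 43.2 ± 1.34 CPM in shControl (a log2 fold change of 1.06 with an SE of 0.05 and limma adjusted p = 4.44e-12), and Itga3 rose to 175 ± 6.25 CPM in shArl4c, against 103 ± 4.23 CPM in shControl (0.76, SE 0.05, limma adjusted p = 9.82e-11). Itga7, also a laminin receptor subunit, did not pass, at 2.49 ± 0.121 CPM in shArl4c and 2.87 ± 0.337 CPM in shControl (-0.15, limma adjusted p = 0.491). Of the subunits of collagen receptors, Itga11 fell to 30.7 ± 1.97 CPM in shArl4c, against 103 ± 2.97 CPM in shControl (-1.71, SE 0.06, limma adjusted p = 1.38e-14), and Itga1 fell to 46.1 ± 0.896 CPM in shArl4c, against 84.1 ± 1.80 CPM in shControl (-0.85, SE 0.05, limma adjusted p = 5.55e-11). Itga10, also a collagen receptor subunit, did not pass, at 1.33 ± 0.397 CPM in shArl4c and 1.11 ± 0.127 CPM in shControl (0.12, limma adjusted p = 0.643), and Itga2 was below the filter, at 0.718 ± 0.207 CPM in shArl4c and 0.798 ± 0.119 CPM in shControl, with overlapping groups. All these subunits pair with the product of Itgb1, whose own log2 fold change was -0.15.

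Itgav, the partner of beta3, beta5, beta6 and beta8, fell by 0.34 on the log2 scale to 306 ± 4.61 CPM in shArl4c, against 387 ± 4.43 CPM in shControl (limma adjusted p = 7.64e-07). Itga5, the fibronectin receptor subunit, fell by 0.19 to 247 ± 1.06 CPM in shArl4c, against 281 ± 4.94 CPM in shControl (limma adjusted p = 0.000792). Itga2b, the platelet partner of beta3, rose by 0.36 to 18.4 ± 0.616 CPM in shArl4c, against 14.2 ± 1.24 CPM in shControl (limma adjusted p = 0.0025), while Itgb3 had a log2 fold change of -0.29. Itga4 (-0.05) did not pass. The 7 calls held under all 16 alternative settings.

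**Figure D3:**
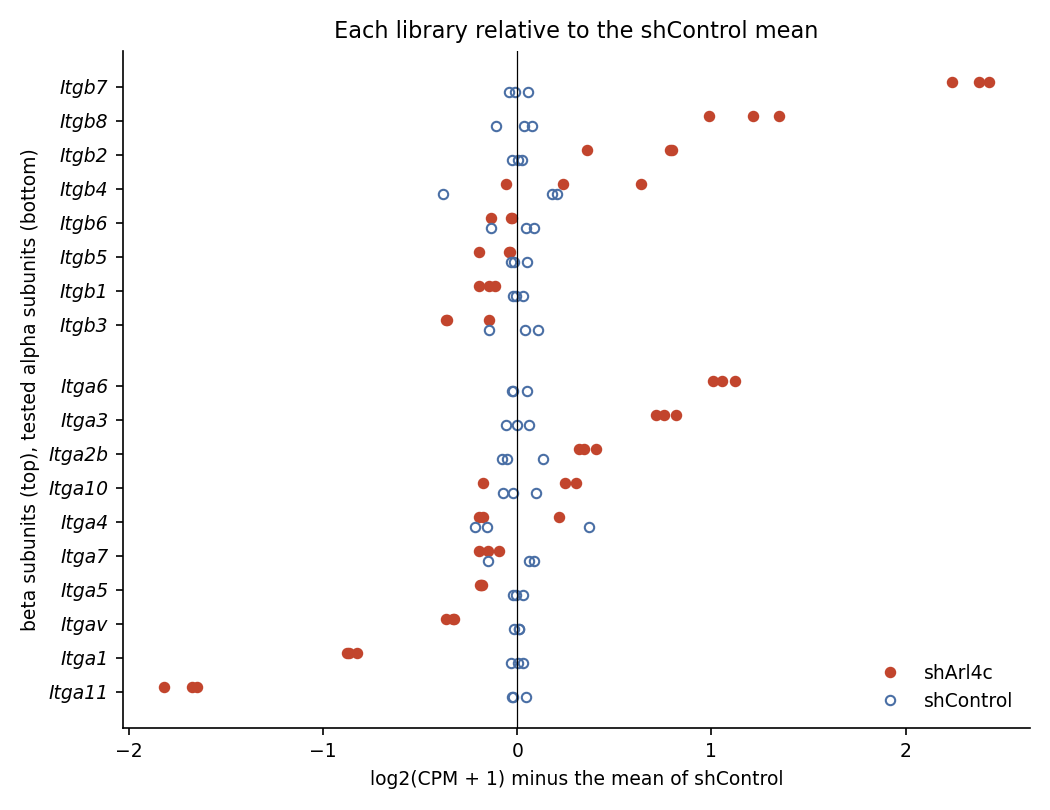
log2(CPM + 1) of each library minus the shControl mean (horizontal axis) for the 8 beta subunits (top) and the 10 tested alpha subunits (bottom), with shArl4c as filled and shControl as open points. Itgb7 lies farthest to the right, Itga11 farthest to the left, and Itga6 and Itga3 are the alpha subunits on the right by the most.

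The known partners of beta7 did not follow Itgb7. Itga4 stood at 1.25 ± 0.376 CPM in shArl4c and 1.35 ± 0.555 CPM in shControl, and Itgae at 0.671 ± 0.269 CPM in shArl4c and 0.519 ± 0.257 CPM in shControl, with overlapping groups for both. Per length, Itga4 and Itgae together came to 0.303 ± 0.0537 CPM per kb in shArl4c and 0.274 ± 0.0117 CPM per kb in shControl, against 56.5 CPM per kb of Itgb7 in shArl4c and 10.8 CPM per kb in shControl. Of their ligands, Cdh1, bound by alphaE with beta7, had 0 reads in shArl4c and 13 in shControl over the group. Vcam1, bound by alpha4 integrins, stood at 92.9 ± 2.33 CPM in shArl4c and 85.1 ± 2.58 CPM in shControl (log2 fold change 0.13, limma adjusted p = 0.0393), a call that was lost in 10 of 16 alternative settings (adjusted p 0.008 to 0.178). Madcam1, bound by alpha4 with beta7, was looked up by symbol and was not listed. Between the other pairs, Itgb5 and Itgav were of one order, at 72.9 and 44.2 CPM per kb in shArl4c and 77.6 and 56.0 CPM per kb in shControl. Itga6 was far above its partner Itgb4 in both groups, at 21.6 ± 0.860 CPM per kb in shArl4c and 10.2 ± 0.316 CPM per kb in shControl.

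**Figure D4:**
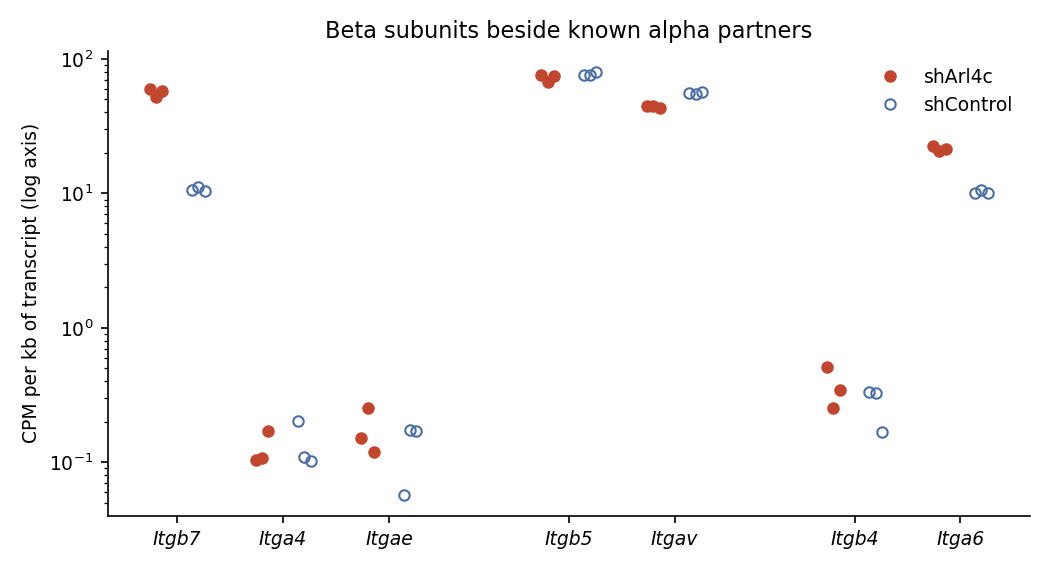
CPM per kb of transcript (vertical axis, logarithmic) of Itgb7, Itgb5 and Itgb4, each followed by its alpha partners, with 1 point per library (shArl4c filled, shControl open). Itgb7 lies above 50 in shArl4c and near 10 in shControl, while Itga4 and Itgae lie under 0.3 in all 6 libraries.

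Genes whose proteins bind beta tails or regulate them from inside the cell also went both ways. Of 36 on the list 35 were in the table and 33 were tested. By limma 8 rose, 11 fell and 14 did not pass (57.6% past the threshold against 36.9% of all tested genes, with a median log2 fold change of 0.03 against 0.01). The talin genes, whose proteins bind beta tails to actin, both fell: Tln1 to 728 ± 16.4 CPM in shArl4c, against 817 ± 15.5 CPM in shControl (log2 fold change -0.17, limma adjusted p = 0.00213), and Tln2 to 61.5 ± 2.06 CPM in shArl4c, against 95.3 ± 4.32 CPM in shControl (-0.62, SE 0.05, limma adjusted p = 7.26e-09). Fermt2, encoding kindlin-2, fell by 0.52 on the log2 scale to 88.6 ± 5.43 CPM in shArl4c, against 128 ± 1.43 CPM in shControl (limma adjusted p = 4.64e-08). The blood cell kindlin gene Fermt3 stood at 1.83 ± 0.373 CPM in shArl4c and 1.80 ± 0.611 CPM in shControl and did not pass.

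In the complex of integrin-linked kinase, PINCH and parvin, which sits on beta tails, Lims1 (PINCH1) fell by 0.50 on the log2 scale to 208 ± 6.58 CPM in shArl4c, against 295 ± 7.81 CPM in shControl (limma adjusted p = 1.05e-08). The low Lims2 (PINCH2) fell by 1.20 to 1.93 CPM in shArl4c, against 5.66 CPM in shControl (limma adjusted p = 5.96e-06). Ilk, the kinase gene, fell by 0.15 (limma adjusted p = 0.0167), a call lost in 4 of 16 alternative settings. Parvg was below the filter, with 38 reads in shArl4c and 15 in shControl. Parvb, encoding beta-parvin, rose 2.17-fold to 74.1 ± 3.91 CPM in shArl4c, against 34.2 ± 1.20 CPM in shControl (limma adjusted p = 1.22e-11), while Parva, encoding alpha-parvin, did not pass (limma adjusted p = 0.0593), at 276 ± 8.63 CPM in shArl4c and 297 ± 8.18 CPM in shControl. Tns3, a tensin gene, rose by 0.42 on the log2 scale to 544 ± 4.20 CPM in shArl4c, against 406 ± 7.08 CPM in shControl (limma adjusted p = 3.49e-08). The other tensin genes on the list went both ways. Tns2 rose to 245 CPM in shArl4c, against 187 CPM in shControl (log2 fold change 0.39, limma adjusted p = 1.54e-07). Tns1 fell to 33.6 CPM in shArl4c, against 44.0 CPM in shControl (log2 fold change -0.38, limma adjusted p = 7.96e-05). Parva, Parvg, Lims2, Ilk, Tns1 and Tns2 were chosen after their values were seen. Under plain CPM of the library total the split of calls was 13 higher and 11 lower, against 8 higher and 11 lower here.

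More integrin ligand genes fell than rose. Of 33 on the list 29 were in the table and 25 were tested. By limma 7 rose, 13 fell and 5 did not pass (80.0% past the threshold, median log2 fold change -0.19). Of all tested genes 36.9% passed, 18.9% higher and 18.0% lower, with a median log2 fold change of 0.01. The smallest p-values among them belonged to falls of genes for matrix proteins: Tnn, Postn, Tnc and Npnt, with log2 fold changes of -5.32, -3.98, -3.39 and -2.14 (limma adjusted p = 2.21e-17 for Npnt and smaller for the others). Npnt, encoding nephronectin, stood at 51.8, 48.5 and 49.8 CPM in shArl4c 2, 3 and 4, against 219.5, 229 and 222 CPM in shControl 1, 2 and 3. Its receptor subunit Itga8, which pairs with beta1 and was below the filter, had 4 reads in shArl4c and 50 in shControl over the group. Of the laminin chains bound by alpha3 and alpha6 integrins or by others with beta1, Lama1 rose 2.57-fold to 65.4 ± 1.95 CPM in shArl4c, against 25.4 ± 0.969 CPM in shControl (limma adjusted p = 9.28e-13), and Lama5 did not pass, at 81.6 ± 3.86 CPM in shArl4c and 82.3 ± 3.94 CPM in shControl. The 12 mesenchymal markers, all listed, summed to 19216 to 20118 CPM in shArl4c and 31729 to 33138 CPM in shControl. Col1a1 and Col1a2, which are on the ligand list too, made up most of that sum, and of the 10 tested markers 4 rose, 4 fell and 2 did not pass by limma, with a median log2 fold change of 0.01. Pdgfra rose to 234 ± 2.47 CPM in shArl4c, against 138 ± 0.168 CPM in shControl, and Prrx1 fell to 585 ± 16.1 CPM in shArl4c, against 1132 ± 20.4 CPM in shControl (limma adjusted p = 1.25e-11 and 3.9e-13). The part of the cell make-up in the ligand differences was not tested. Itga8, Lama1, Lama5 and the cell type markers named singly were chosen after their values were seen.

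The genes whose profiles over the 6 libraries lay nearest to that of Itgb7, by Euclidean distance of log2(CPM + 1) from the shControl mean among 10334 genes of at least 5 CPM, were Msln (distance 0.224), Rsad2 (0.317), Prl2c2 (0.321), Nr5a2 (0.358) and Gas7 (0.468), where the median gene was at 4.04. Their log2 fold changes on the scale of log2(CPM + 1) were 2.27, 2.21, 2.51, 2.39 and 2.10, next to 2.35 for Itgb7. The added 1 CPM compressed those of Rsad2 and Nr5a2, which stood at 1.57 and 1.20 CPM in shControl. By mean CPM these genes were 6.94-fold and 8.78-fold higher in shArl4c, against 5.24-fold for Itgb7. For Itgb3, the tested member with the lowest log2 fold change, the nearest genes were Ficd (0.0827), Podnl1 (0.121), Gpr161 (0.124), Etv5 (0.128) and Supt20 (0.129), with a median gene at 0.653. Prl2c2 belongs to a cluster of near-identical genes among which reads may have been split, so its value is uncertain. With 2 groups, such nearness mainly means a like difference between them.

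**Figure D5:**
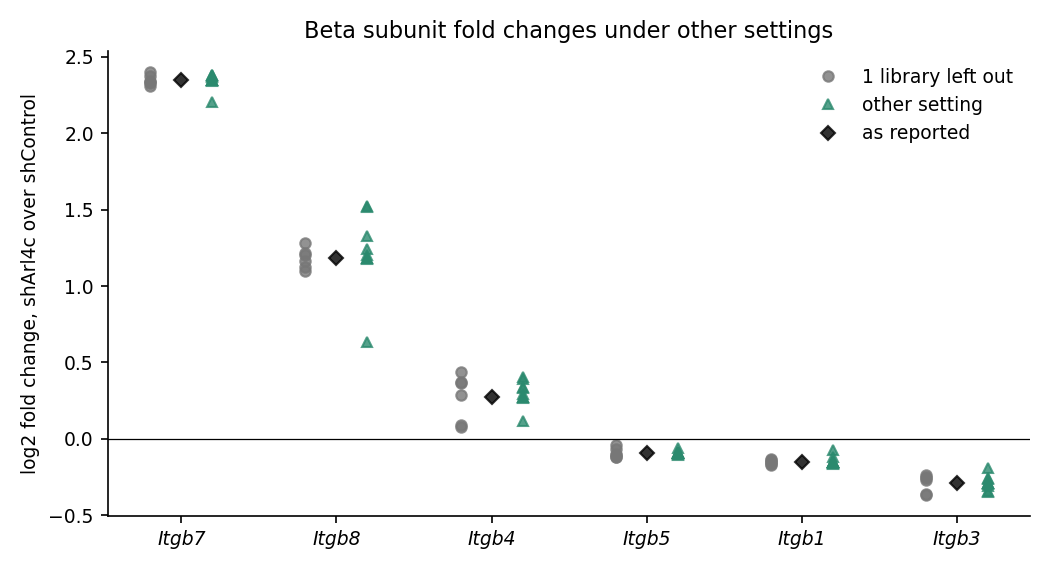
log2 fold change of shArl4c over shControl (vertical axis) for the 6 tested beta subunits as reported (diamonds), with each library left out in turn (circles) and under the other settings (triangles). All values of Itgb7 lie between 2.20 and 2.40 and those of Itgb8 between 0.63 and 1.53, while some of Itgb1, Itgb5 and Itgb4 come within 0.1 of 0.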

How the data were processed

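The authors deposited 1 table of CPM per gene and library. Trimmomatic 0.38, RSEM 1.3.0, Bowtie2 and edgeR and the build GRCm39 are named, per the submitters' processing notes. Annotation, strand setting and filters are not given in the sources used here. All values were whole multiples of 1 read (100% within 0.001 of a read), so reads could be recovered. The smallest listed gene total was 6 reads. Columns labelled shluc were taken as shControl and those labelled shArt4c, numbered 2 to 4, as shArl4c. They were mapped to groups, not to single samples, and keep their column numbers.

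Of 22032 identifiers 21880 matched a symbol. Genes averaging under 1 CPM were left out, and log2(CPM + 1) of the other 14740 went into limma (version 3.58.1, R 4.3.3, trend and robust moderation), with Benjamini-Hochberg adjustment over all tested genes. As alternatives, edgeR 4.0.16 (quasi-likelihood) and DESeq2 1.42.0 were run on the reads so recovered. The others changed the pseudocount, filter, scaling, moderation or the libraries used. The steps were tested on simulated data. Transcript lengths are means over coding transcripts of the GENCODE basic set on GRCm38, an older build than the authors', and reads may map to other isoforms.

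The members, gene lists and tests were chosen with earlier results of these data known. Named genes were the 8 members, Arl4c, tested alpha subunits and partners, the 4 smallest p-values of the tail binder and ligand lists, talin and kindlin genes, Vcam1, and the 5 nearest profiles of the members with the largest rise and fall.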

Additional observations from a re-analysis of the deposited data

How the results depend on the processing

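All 16 alternatives kept every summary count within 1.5 times the reported one. All tested genes past the threshold numbered 4108 (DESeq2) to 6623 (without shArl4c 3), against 5445. Beta subunits past it numbered 2 to 4: Itgb1 was not past it under quantile normalization or without trend and robust moderation, the filter at 5 CPM removed Itgb8, and with no filter Itgb2 passed. Alpha subunits numbered 7 to 9, tail binders 16 to 24 and ligands 18 to 21. Leaving out 1 library gave 4368 to 6623 genes, 3 beta subunits, 7 alpha subunits, 17 to 22 tail binders and 18 to 21 ligands. Among the beta subunits and the 68 tested list genes, no direction of a called gene reversed. Directions of the other genes were not compared. Of the tested list genes, 6 lost their call at least once and 7 gained one. With the longest transcript in place of the mean length, Itgb7 made up 19.2% of the beta subunit sum in shArl4c and 3.99% in shControl. No paired analysis was possible because the shArl4c columns are numbered 2 to 4 and the samples in the labels 1 to 3, so that the columns could be tied to groups but not to single samples. Depth limits Itgb2, Itgb4 and Itgb6, each with at most 42 reads in a library. It also limits the difference of Itgb8, which had 25, 32 and 27 reads in shControl 1, 2 and 3.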
